A study of Rattus norvegicus with 9 samples.

Results

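The salt cotransporters of the distal nephron and the kinases and ligase that set their activity were followed in rat kidney by array. They comprise the cotransporters Slc12a1 and Slc12a3, uromodulin (Umod), the kinases Wnk1, Wnk4, Stk39 and Oxsr1, and the ubiquitin ligase subunits Klhl3 and Cul3. A probe was taken as a member when it was no control spot and its gene name in the array files equalled 1 of these 9 symbols. This gave 11 of 30367 gene probes, for 8 of the 9 genes (of 26115 gene names on the array), and 10 of these probes, covering all 8 genes, were among the 15845 probes bright enough to be tested. Klhl3 had 0 probes by name, synonym or accession, so it has no value.

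Kidneys came from Fisher F344 rats used as a model of donation after circulatory death (DCD), and each array measured the RNA of renal tissue from 1 kidney. All kidneys had 20 min. of warm ischaemia. The 5 NP kidneys were not perfused, and the 4 MSC kidneys were perfused for 4 hrs at 4°C with Belzer solution (BS, a cold preservation fluid) holding 3000000 mesenchymal stromal cells (MSC) grown from the bone marrow of Sprague Dawley rats with an EGFP transgene. The groups therefore differ in perfusion and time in the cold as well as in the cells, and these cannot be told apart. The labels are split on the NP kidneys, since their treatment field says not perfused while their titles and descriptions name a perfusion of 4 hrs with BS.

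In the thick ascending limb, NKCC2 (Slc12a1) carries sodium, potassium and chloride out of the tubular fluid, and uromodulin is the protein that these cells secrete in bulk into urine. In the distal convoluted tubule the thiazide-sensitive cotransporter NCC (Slc12a3) takes up sodium and chloride. The WNK kinases phosphorylate SPAK (Stk39) and OSR1 (Oxsr1), which phosphorylate and switch on both cotransporters, and the KLHL3-CUL3 ligase marks WNK kinases for degradation. In kidney, Wnk1 is made both as a full-length kinase and as a shorter transcript that starts at an alternative exon and lacks most of the kinase domain. Phosphorylation and protein degradation are not seen by an expression array.

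Each array probe is 60 bases long, and what a probe can tell depends on which stretch of the transcript it reads. Of the probes below, those of Wnk1 are shown because they read different stretches, 1 of them described in the files by a kinase-deficient variant. The Slc12a3 probe is shown because it ends at the stop codon (in capitals) that closes its reading frame. The Wnk4 probe is shown because it is the only one of its gene.
Wnk1, kinase-deficient transcript, base 104: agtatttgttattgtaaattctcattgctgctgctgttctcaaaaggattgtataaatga
Wnk1, region shared by the transcripts, base 6441: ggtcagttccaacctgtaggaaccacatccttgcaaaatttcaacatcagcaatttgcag
Slc12a3, base 2961: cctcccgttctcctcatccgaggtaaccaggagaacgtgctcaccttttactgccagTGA
Wnk4, base 2866: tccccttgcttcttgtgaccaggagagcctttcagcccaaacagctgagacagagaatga
Positions within the transcript and on the genome are those of the array files, on rn4. The kinase-deficient Wnk1 probe lies at chr4:156350582-156350641 on the minus strand and is described in the files by a partial coding sequence of a kinase-deficient variant. The shared Wnk1 probe lies at chr4:156298683-156298742 on the same strand. Neither Wnk1 probe was mapped to exons here, so kinase-deficient and shared are labels that were not checked. The Slc12a3 probes lie at chr19:11071790-11071849 (base 2961) and chr19:11070329-11070388 (base 4322), on the minus strand, and the Wnk4 probe at chr10:90304481-90304540 on the plus strand. Of the other probes, those for Slc12a1, for Slc12a3 at base 4322 and for Cul3 hold the letters AATAAA on the printed strand, as do 8.39% of all 30367 gene probes. AATAAA is the common polyadenylation signal.

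Values are log2 intensities of Cy3 after normalization between arrays by cyclic loess, and a difference is the mean of MSC minus the mean of NP on that scale. They set the same probe on different arrays side by side. Where 2 probes of a gene are subtracted on an array, the gap depends on the probes as well as on the RNA, and only its difference between groups is read. None of the 10 tested member probes passed the FDR threshold of 0.05 in limma, and neither did any of all 15845 probes (0%). The study itself reported the genes Tmem52b and Calb1 as significantly up-modulated at this FDR on these arrays, so its calls differ from those made here. At an unadjusted limma p under 0.05, 4 member probes of 3 genes were higher in MSC kidneys, where 6.5% of all probes were, and 1 was lower, where 5.14% were. The 4 were Slc12a1, both Slc12a3 probes and the kinase-deficient Wnk1 probe, and the 1 was Oxsr1. No member probe had every MSC array above every NP array (3.12% of all probes) or below (2.13%). The difference was above 0 for 8 of 10 member probes (48.8% of all probes), with a median of 0.14 over the members and -0.00 over all probes.

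The count of 5 member probes at an unadjusted p under 0.05 depended on single arrays. It was 3 without NP replicate 2, 2 without NP replicate 3, 3 without NP replicate 4 and 1 without MSC replicate 4. The count over all 15845 probes was lower in the same fits, at 1642, 1441, 1727 and 1399 against 1844 with all arrays. The 1 probe that stayed without MSC replicate 4 was Slc12a3 at base 2961. The count of 0 probes whose groups do not overlap was 2 without NP replicate 1, where 11.5% of all probes did not overlap, 1 without NP replicate 5 (8.1%) and 1 without MSC replicate 1 (7.58%), against 5.26% of all probes with all arrays. The arrays lay on 2 slides, the first with NP replicates 1 to 3 and MSC replicates 1 and 2, the second with NP replicates 4 and 5 and MSC replicates 3 and 4, and differences within each slide are given for the member probes.

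**Figure D1:**
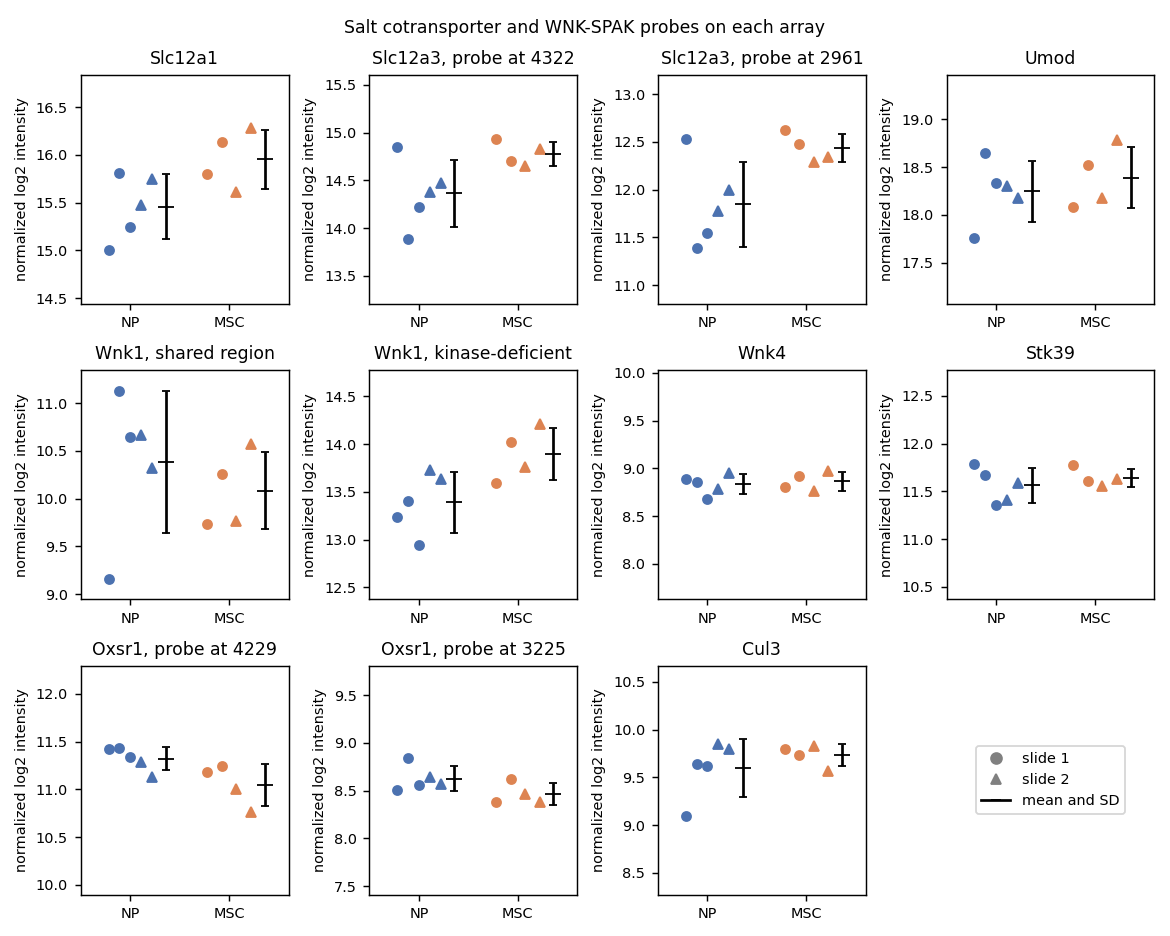
Normalized log2 intensity of each of the 11 member probes (y axis, each panel spanning the same number of log2 units) on the 5 NP and 4 MSC arrays (x axis). Points are single kidneys, circles on slide 1 and triangles on slide 2, with the mean and SD of each group in black. Slc12a1, both Slc12a3 probes and the kinase-deficient Wnk1 probe lie higher on most MSC arrays, while in every panel the points of the groups overlap.

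Slc12a1 encodes the cotransporter that loop diuretics block. Its probe (chr3:112534679-112534738, plus strand) read 15.00, 15.81, 15.25, 15.48 and 15.75 on NP replicates 1 to 5 and 15.80, 16.14, 15.61 and 16.28 on MSC replicates 1 to 4. MSC replicates 2 and 4 were above all NP kidneys, and the other two lay inside the NP range. The means were 15.46 ± 0.34 (SD, n = 5) and 15.96 ± 0.31 (SD, n = 4). The difference was 0.50 (SE 0.19, 95% interval 0.07 to 0.93), or 1.41-fold, with a limma FDR of 0.387. It was 0.61 on slide 1 and 0.33 on slide 2.

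Slc12a3 is made almost only in the distal convoluted tubule and is the target of thiazides. The probe at base 4322 read 14.85, 13.89, 14.22, 14.38 and 14.48 on the NP arrays and 14.93, 14.70, 14.65 and 14.83 on the MSC arrays. The probe at base 2961 read 12.53, 11.39, 11.54, 11.78 and 11.99 on the NP arrays and 12.62, 12.48, 12.29 and 12.34 on the MSC arrays. In both, NP replicate 1 stood with the MSC kidneys and above 3 of the 4, and the other 4 NP kidneys lay below every MSC kidney. The NP kidneys were also more spread than the MSC kidneys, with 14.36 ± 0.35 against 14.78 ± 0.13 for base 4322 and 11.85 ± 0.45 against 12.43 ± 0.15 for base 2961 (SD, n = 5 and 4).

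The difference was 0.41 (SE 0.17, 95% interval 0.04 to 0.79, 1.33-fold, limma FDR 0.399) by the probe at base 4322. By the probe at base 2961 it was 0.59 (SE 0.21, 0.13 to 1.05, 1.5-fold, limma FDR 0.350). Within slides the values were 0.50 and 0.31 for base 4322, and 0.73 and 0.43 for base 2961, slide 1 first. With 1 array left out the difference ran from 0.29 (without NP replicate 2) to 0.54 (without NP replicate 1) for base 4322, and from 0.47 to 0.76 for base 2961 with the same arrays left out. The limma FDR was 0.154 to 0.912 and 0.134 to 0.840 over all alternatives tried.

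Umod encodes uromodulin, a cargo of the thick ascending limb rather than a transporter. Its probe (chr1:177729224-177729283, minus strand) read 17.76, 18.65, 18.34, 18.30 and 18.18 on the NP arrays and 18.09, 18.52, 18.18 and 18.78 on the MSC arrays. NP replicate 1 was lowest and MSC replicate 4 highest, and the rest of both groups lay between. Within slides the difference was 0.05 and 0.24, and over all arrays 0.14 (SE 0.19, 95% interval -0.28 to 0.57, limma FDR 0.793), so that a difference the size of that of Slc12a1 lies inside the interval. It was 0.02 without NP replicate 1 or without MSC replicate 4, and 0.25 without NP replicate 2 or without MSC replicate 1.

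**Figure D2:**
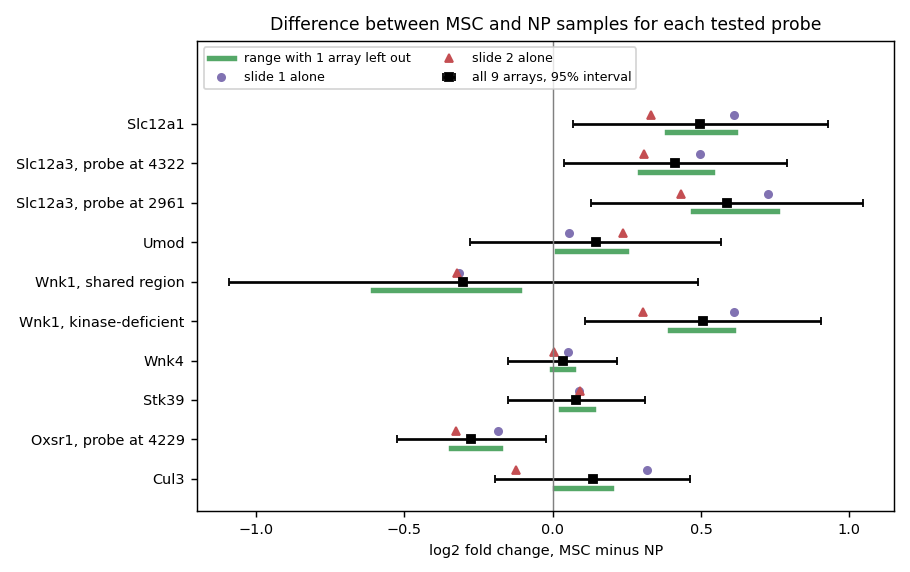
Difference between MSC and NP kidneys in log2 units (x axis) for each of the 10 tested member probes (y axis). Black squares with bars are the limma estimate and its 95% interval over 9 arrays, purple circles and red triangles the difference within slide 1 and slide 2, and green bars the range with each array left out in turn. The intervals of Slc12a1, both Slc12a3 probes, the kinase-deficient Wnk1 probe and the Oxsr1 probe at base 4229 leave out 0, none of these passed the FDR threshold, and for Cul3 the slides differ in sign.

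The kinase-deficient Wnk1 transcript is known from the distal convoluted tubule and the kidney is its main source. Its probe read 13.24, 13.41, 12.94, 13.73 and 13.64 on the NP arrays and 13.60, 14.02, 13.77 and 14.21 on the MSC arrays. MSC replicates 2 to 4 were above all NP kidneys and MSC replicate 1 lay inside their range. The means were 13.39 ± 0.32 (SD, n = 5) and 13.90 ± 0.27 (SD, n = 4), and the difference was 0.51 (SE 0.18, 95% interval 0.11 to 0.90, 1.42-fold, limma FDR 0.350), with 0.61 on slide 1 and 0.30 on slide 2. This probe is printed at 1 spot per array.

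The shared Wnk1 probe read 9.16, 11.13, 10.65, 10.66 and 10.32 on the NP arrays and 9.74, 10.26, 9.77 and 10.57 on the MSC arrays. NP replicate 1 was the lowest of all 9 kidneys and NP replicate 2 the highest, with all MSC kidneys between them. The difference was -0.30 (SE 0.35, 95% interval -1.09 to 0.49, limma FDR 0.766), the widest interval of the members, and -0.31 and -0.32 within the slides. Single arrays moved it both ways, to -0.61 without NP replicate 1 and to -0.11, -0.19 and -0.20 without NP replicate 2, MSC replicate 1 and MSC replicate 3 (limma FDR 0.239 to 0.932 over all alternatives). A further probe, listed in the files under a transcript cluster name and not by symbol, carries a Wnk1 accession. It was bright enough on 2 arrays and was not tested, with 8.65 ± 0.39 on the NP arrays and 8.33 ± 0.10 on the MSC arrays (SD, n = 5 and 4).

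On each array, the kinase-deficient probe minus the shared probe was 4.08, 2.28, 2.30, 3.07 and 3.32 on the NP arrays and 3.86, 3.76, 4.00 and 3.64 on the MSC arrays. The MSC kidneys lay close together, and only NP replicate 1 was as high as they were. This difference between probes was 0.81 larger on the MSC arrays, with p = 0.0952 in an exact two-sided permutation test over 126 splits, whose smallest possible p is 0.00794 (0.143 after adjustment over the 3 probe pairs compared).

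The other pairs were Slc12a3, whose probes differed by 2.52 ± 0.14 on the NP arrays and 2.34 ± 0.11 on the MSC arrays (exact permutation p = 0.0635, adjusted 0.143), and Oxsr1, with 2.70 ± 0.15 and 2.58 ± 0.18 (exact permutation p = 0.357, adjusted 0.357). None of the 3 pairs passed an adjusted p of 0.05.

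**Figure D3:**
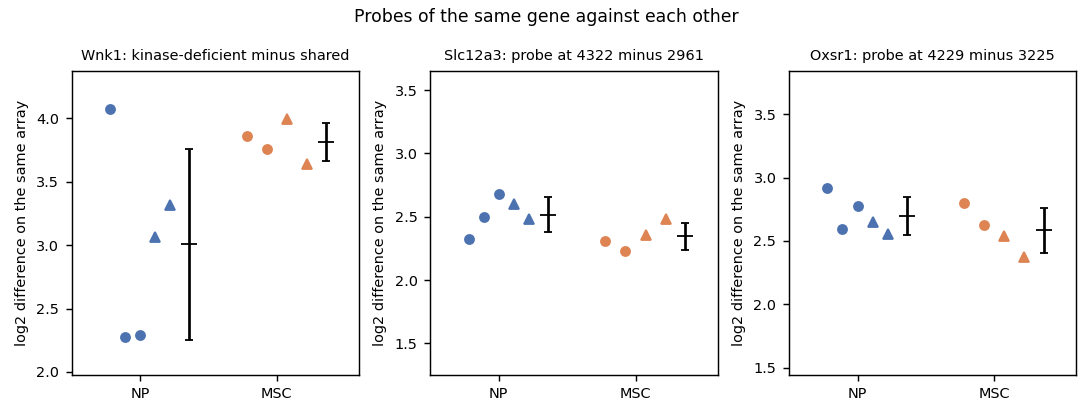
Difference in log2 intensity between 2 probes of a gene on the same array (y axis) for the NP and MSC arrays (x axis), with circles for slide 1, triangles for slide 2 and the mean and SD of each group. For Wnk1 the 4 MSC kidneys lie close together, from 3.64 to 4.00, and the 5 NP kidneys run from 2.28 to 4.08.

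Wnk4 is the WNK kinase best known for its control of NCC. Its probe was dim, passing the brightness filter on 5 of 9 arrays, where 4 were needed. It read 8.89, 8.86, 8.68, 8.78 and 8.95 on the NP arrays and 8.81, 8.92, 8.76 and 8.98 on the MSC arrays. The groups lay on top of each other, with a difference of 0.03 (SE 0.08, 95% interval -0.15 to 0.22, limma FDR 0.901), and of 0.05 and 0.01 within the slides.

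Stk39 encodes SPAK, the kinase that phosphorylates NCC and NKCC2 directly. Its probe (chr3:50250057-50250116, minus strand) read 11.79, 11.67, 11.35, 11.41 and 11.59 on the NP arrays and 11.78, 11.60, 11.56 and 11.63 on the MSC arrays. All MSC kidneys lay inside the NP range. The difference was 0.08 (SE 0.10, 95% interval -0.15 to 0.31, limma FDR 0.788), so that its interval leaves out a change of the size seen at the Slc12a1 probe. It was 0.09 within each slide, and 0.03 to 0.14 with 1 array left out.

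Oxsr1 encodes OSR1, the close relative of SPAK that acts beside it in the thick ascending limb. Its probe at base 4229 (chr8:124196835-124196894, minus strand) read 11.42, 11.43, 11.34, 11.29 and 11.13 on the NP arrays and 11.18, 11.25, 11.00 and 10.76 on the MSC arrays. MSC replicates 3 and 4 were below all NP kidneys and the other two lay at the low end of the NP range. The difference was -0.27 (SE 0.11, 95% interval -0.53 to -0.02, limma FDR 0.403), with -0.18 on slide 1 and -0.33 on slide 2. Without MSC replicate 4 it was -0.18 (limma FDR 0.599, against 0.297 to 0.854 over all alternatives).

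The other Oxsr1 probe, at base 3225 (chr8:124197839-124197898), passed the brightness filter on 0 arrays although it was well above background on 9. It was not tested with the rest, and read 8.50, 8.84, 8.56, 8.64 and 8.57 on the NP arrays and 8.38, 8.62, 8.47 and 8.39 on the MSC arrays. All but 1 MSC kidney were below all NP kidneys. With no brightness filter its difference was -0.16 (limma FDR 0.621), and within the slides -0.14 and -0.18.

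Cul3 is the scaffold of the ligase, and it works with many adaptors besides KLHL3. Its probe (chr9:79575012-79575071, minus strand) read 9.09, 9.64, 9.62, 9.85 and 9.80 on the NP arrays and 9.79, 9.74, 9.83 and 9.57 on the MSC arrays. Only NP replicate 1 stood apart, below the other 8 kidneys. The difference was 0.13 (SE 0.15, 95% interval -0.20 to 0.46, limma FDR 0.748), with 0.32 on slide 1 and -0.12 on slide 2. Without NP replicate 1 it was 0.01, and without NP replicate 4 it was 0.20.

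NP replicate 1 was thus the lowest kidney for Slc12a1, Umod, shared Wnk1 and Cul3 and the highest NP kidney for both Slc12a3 probes, and normalization moved these probes unevenly. Before normalization the Umod probe differed by 1.26-fold between its lowest and highest array, and after it by 2.03-fold. For the Slc12a3 probes the range shrank, from 4.36-fold to 2.06-fold at base 4322 and from 5.22-fold to 2.34-fold at base 2961, and for shared Wnk1 it grew from 2.82-fold to 3.91-fold. Across the 9 arrays, normalized Umod followed the mean of the 100 brightest other probes with a Pearson's r of 0.99, and shared Wnk1 did so with 0.87. Slc12a1 had an r of 0.69 with them, the kinase-deficient Wnk1 probe 0.43, and the Slc12a3 probes -0.46 and -0.47. The part of this in the differences between groups was not tested, and with median scaling of each array in place of cyclic loess the differences were 0.42 for Slc12a1, 0.35 and 0.55 for Slc12a3, 0.05 for Umod, and 0.45 and -0.30 for kinase-deficient and shared Wnk1.

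**Figure D4:**
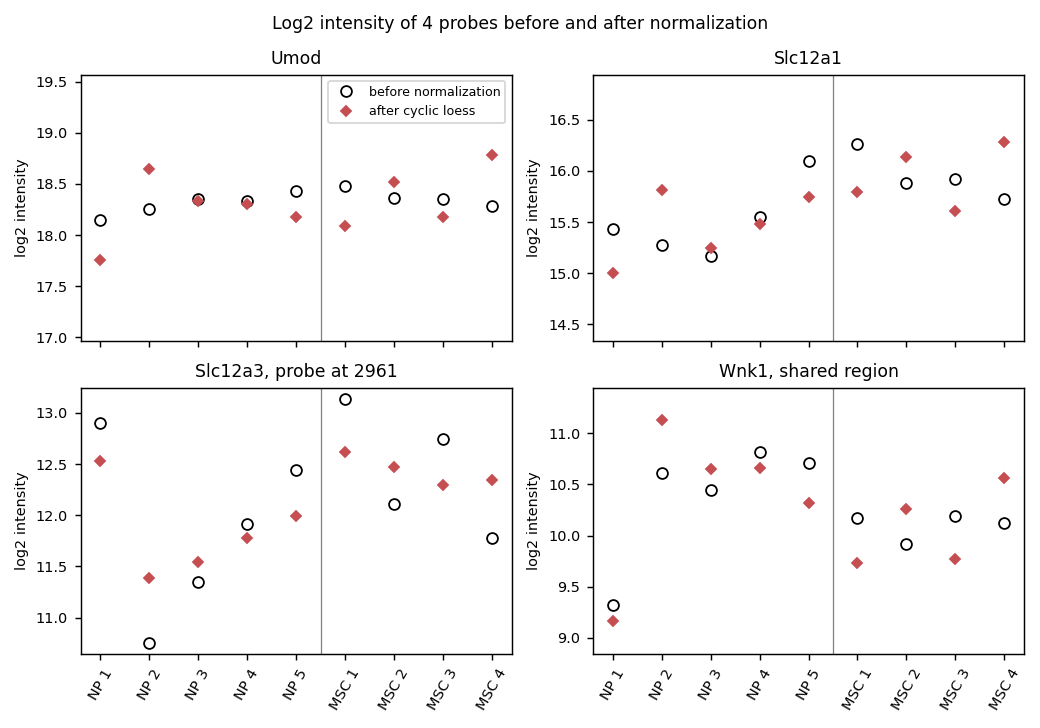
Log2 intensity (y axis) of the Umod, Slc12a1, Slc12a3 (base 2961) and shared Wnk1 probes on each of the 9 arrays (x axis), as open circles before normalization and red diamonds after cyclic loess. Umod is nearly level before normalization and spreads 2.03-fold after it, while the spread of Slc12a3 narrows from 5.22-fold to 2.34-fold.

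The members did not vary as 1 group across the 9 kidneys. As a description over 9 arrays that share their normalization, the Slc12a3 probes had a Pearson's r of 0.97 with each other (0.95 within groups). Slc12a1 had an r of 0.83 with the kinase-deficient Wnk1 probe (0.68 within groups), 0.76 with Umod (0.82 within groups) and 0.40 with shared Wnk1 (0.78 within groups). The cotransporters did not go together, with 0.19 and 0.14 between Slc12a1 and the Slc12a3 probes, and -0.46 and -0.48 within groups. Shared Wnk1 ran opposite to Slc12a3, with -0.80 and -0.78, and along with Umod, with 0.82.

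Among all 15845 tested probes, the named genes whose pattern over the 9 arrays was most like that of Slc12a1 were Slc47a1, an organic cation exporter, and Gstt3, a glutathione transferase (r of 0.96 and 0.95). Most like Slc12a3 at base 4322 were Slc44a3 and Hsd11b2 (0.98 for each), the latter being the enzyme that protects the mineralocorticoid receptor of distal tubule cells from cortisol and corticosterone. Most like Umod were Slc3a1, Miox and Cyp2c23 (0.997, 0.996 and 0.995), genes known from the proximal tubule. Normalized Umod also had an r of 0.99 with the mean of the 100 brightest other probes. Whether its likeness to these genes goes beyond that was not tested.

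Other genes of the pathway were taken from lists and described by counts. Of 19 partners of WNK and SPAK (scaffolds, ligases, phosphatases and upstream kinases), 17 had a tested probe. An unadjusted limma p under 0.05 was found for 1 of their 21 tested probes, where 11.6% of all probes had one. It was Nrbp1, a pseudokinase, at 0.22 (SE 0.09, limma FDR 0.404), and the median of the list was -0.03. Wnk2 and Wnk3 were well above background on 0 arrays. Of the other SLC12 cotransporters, 2 of 10 tested probes had an unadjusted p under 0.05, both higher in MSC kidneys (6.5% of all probes). One was for Slc12a7, a potassium-chloride cotransporter, at 0.28 (SE 0.10, limma FDR 0.373), whose other probe was at 0.07 (limma FDR 0.840). The other was for Slc12a2, the widespread NKCC1, at 0.17 (SE 0.07, limma FDR 0.392), whose second probe was at 0.20 (limma FDR 0.435). For both Slc12a2 probes every MSC array was above every NP array (3.12% of all probes).

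Of the partners in the thick ascending limb, 4 of 20 tested probes had an unadjusted p under 0.05, all higher, where 6.5% of all probes were, and the median was 0.17. Among them was 1 of the 3 probes of the potassium channel Kcnj1, or ROMK, at 0.31 (SE 0.12, limma FDR 0.393), while its other probes were at 0.11 and -0.03 (limma FDR 0.763 and 0.958). Of the partners in the distal convoluted tubule, 9 of 17 tested probes had an unadjusted p under 0.05, all higher. The median was 0.31 and all 4 MSC kidneys were above all NP kidneys for 4 of the 17 (3.12% of all probes). This list holds Tmem52b and Calb1, which the study singled out on these same arrays, so its counts and median are no independent evidence of its direction.

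The smallest p in that list belonged to 1 of the 2 probes of Tmem52b, a membrane protein, at 0.86 (SE 0.10, limma FDR 0.104), and its other probe was at 0.28 (SE 0.22, limma FDR 0.640). Calb1, the calcium buffer of distal tubule cells, was at 1.13 (SE 0.16, limma FDR 0.231), Egf at 1.37 and 0.65 by its 2 probes (limma FDR 0.332 and 0.333) and the potassium channel Kcnj16 at 0.31 (limma FDR 0.332). None of these lists held a probe past the FDR threshold. Pvalb, which marks the early distal convoluted tubule, was well above background on 0 arrays.

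**Figure D5:**
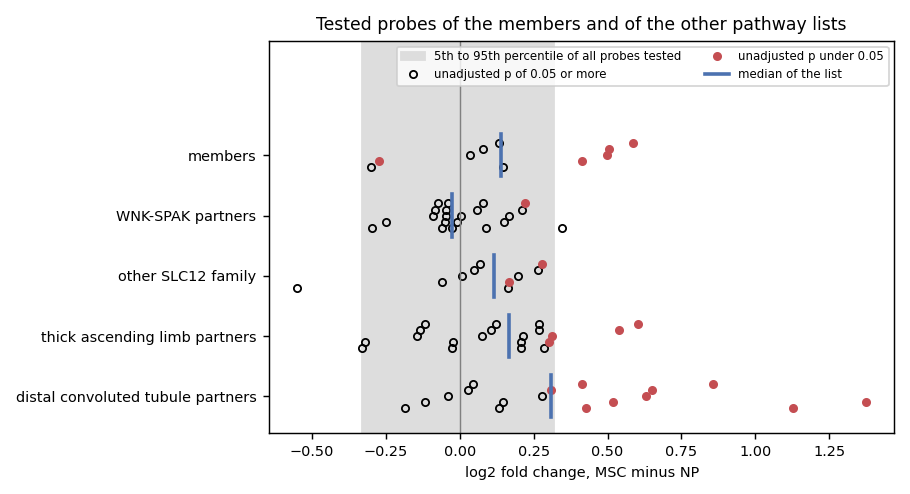
Difference between MSC and NP kidneys in log2 units (x axis) for every tested probe of the members and of 4 lists of other pathway genes (y axis). Filled points have an unadjusted limma p under 0.05, blue lines are list medians and the grey band runs from the 5th to the 95th percentile of all 15845 probes (-0.33 to 0.32). Of the rows shown, the distal convoluted tubule list has the highest median, 0.31, and 4 member probes lie above the band.

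In RNA of renal tissue, fewer cells of a type and less RNA per cell cannot be told apart. The 5 principal cell probes were well above background on all arrays. Their level (mean over the probes of the deviation from the average of 9 arrays) was -0.65 to 0.07 on the NP arrays. On the MSC arrays it was 0.01 to 0.53. Of these probes, 2 of 5 were higher at an unadjusted limma p under 0.05 (6.5% of all probes), with a median difference of 0.42. For the 6 intercalated cell probes the level was -0.62 to 0.22 against 0.11 to 0.51, with 3 of 6 higher and a median difference of 0.46. They include Atp6v0d2, which the study selected from these same arrays, so these values are no independent evidence of their direction. For the 7 proximal tubule probes the level was -0.21 to 0.11 against -0.02 to 0.15, with 1 of 7 higher and a median difference of 0.09. The same measure was -0.32 to -0.06 against 0.02 to 0.40 over the 4 cotransporter and uromodulin probes. It was -0.20 to 0.20 against -0.13 to 0.13 over the kinase probes, and -0.57 to 0.19 against -0.09 to 0.17 for Cul3. Over the distal convoluted tubule partners, which include Tmem52b and Calb1, it was -0.36 to -0.02 against 0.10 to 0.36. Over the thick ascending limb partners it was -0.17 to 0.04 against -0.09 to 0.21.

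Markers from outside the tubule also varied between kidneys. Those of fat were -0.73 to -0.19 on the NP arrays and -0.59, 0.15, 1.71 and 0.97 on MSC replicates 1 to 4. Of their tested probes, 2 of 3 were higher at an unadjusted limma p under 0.05 (6.5% of all probes), and Lep was well above background on 0 arrays. Those of red cells were 0.24 to 1.01 on the NP arrays and -2.88 to 0.62 on the MSC arrays, with 3 of 5 probes lower at an unadjusted p under 0.05 (5.14% of all probes) and a median difference of -1.68. Those of mesenchymal stromal cells were -0.55 to 0.17 on the NP arrays and 0.32, -0.16, 0.40 and 0.46 on MSC replicates 1 to 4. Of their tested probes, 2 of 6, both of Col1a1, were higher at an unadjusted limma p under 0.05 (6.5% of all probes). The podocyte, endothelial, leukocyte and injured tubule lists held 0 such probes, and the podocyte level reached -0.98 on MSC replicate 4. The part of these lists in the member differences was not tested.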

How the data were processed

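Renal RNA was measured on Agilent 1-colour rat arrays with 62976 spots, of which 58717 carried gene probes. The authors deposited the raw Cy3 intensity of each spot, made with Agilent Feature Extraction 10.7.3.1, and a filtered table of normalized log2 values. Here mean pixel intensities were log2 transformed without background subtraction and normalized by cyclic loess in limma 3.58.1 (R 4.3.3, with the data.table package, 1.17.8). Control spots and spots with outlier flags were left out, and spots of a probe were averaged. On every array these values and the authors' deposited log2 values correlated with an r that rounded to 0.9999 or higher over 15845 probes. Between 65.6% and 74.3% of gene spots were well above background, 0 were saturated, and r between arrays was 0.965 to 0.997.

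The wording of the brightness filter in the methods leaves its form open. As applied, a log2 value had to exceed, on at least 4 arrays, the 95th percentile of the 308 negative controls multiplied by 1.1. MSC arrays (n = 4) were set against NP arrays (n = 5) by limma with empirical Bayes moderation and no covariates. The Benjamini-Hochberg FDR was taken over all tested probes, and the thresholds were those of the study (FDR 0.05, fold 1.5). Probe pairs were compared by an exact permutation test over arrays. The members and lists were chosen with earlier results of these data known. All members are named, and from each other pathway list up to 4 genes with an unadjusted p under 0.05, smallest p first, except that some results of the thick ascending limb list are not reported here. Each sample is a separate kidney per the methods, and the number of arrays limits the precision. An MSC array that the study discarded was not analysed here. Alternatives took other intensity columns, background corrections, normalizations, filters, variance models, blocks and choices of probe, the deposited log2 values, and left out each array in turn.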

Additional observations from a re-analysis of the deposited data

How the results depend on the processing

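No member probe passed the FDR and fold thresholds under any alternative with a test (each slide alone had none), and the median member difference stayed between 0.09 and 0.20. Of 238 recomputed differences of member probes, 3 changed sign: Wnk4 was -0.0039 without NP replicate 3 and -0.0034 without MSC replicate 4 (up to 0.068 with another array left out), and Cul3 was -0.12 on slide 2 alone. The count of 5 member probes at an unadjusted p under 0.05 was 3 with the processed signal (12.3% of all probes), with 1 probe for each gene (of 8 member probes, 11.7% of all) and with array weights (15.8%), and 2 with 75th percentile scaling (10.5%) and with median scaling (6.15%), against 11.6% of all probes as reported. Leaving out 1 array gave 1 to 5. The count of 0 member probes whose groups do not overlap was 1 with median scaling (2.74% of all probes) and 1 with the replicate block, which leaves out NP replicate 5 (8.1%), and 0 to 2 with 1 array left out (2 without NP replicate 1, 1 without NP replicate 5 and 1 without MSC replicate 1). The count of 16 pathway list probes was 9 with median scaling and 12 to 23 with 1 array left out, while that over all 15845 probes moved from 1844 to 974 and to between 1351 and 2598. With array weights limma called 2 of all 15845 probes, no member among them.

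Same-numbered NP and MSC arrays deviated together with r of 0.198, 0.319, -0.352 and 0.0474. Whether the replicate numbers pair the arrays was not tested. With the numbers as a replicate block the count at an unadjusted p under 0.05 stayed 5, and Slc12a1 was 0.57 (limma FDR 0.391). Wnk4 and the Oxsr1 probe at base 3225 were close to the negative controls, which limits what can be seen of them.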
